A study of Mus musculus with 4 samples.

Results

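The 9 genes described here belong to cell-cell junctions and ephrin signalling, and they were followed in lenses of mice that lack Tdrd7 and of control mice. They are Epha2, Efna5, Cdh1, Cdh2, Ctnnb1, Ctnna1, Ctnnd1, Arvcf and Jam3. They were listed by name, by a rule with no threshold on a measured value but with earlier results of these data known, and all 9 were found among the 10790 genes with values. The series measured RNA of whole lenses at postnatal day 4. The groups were Tdrd7 -/- lenses, called Tdrd7 null or null here, and wild type control lenses, with 2 libraries each, and each library was made from a pool of 15 lenses. No other allele or treatment was given for either group. No source used here gives the strain, the sex, the targeted allele or the number of animals behind a pool, and pooled lenses do not show the spread between animals.

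The cells of the lens, an epithelial sheet over a mass of elongated fiber cells, are held together by adherens junctions. In these, a cadherin in the membrane binds its counterpart on the next cell, and its cytoplasmic tail binds beta-catenin and a catenin of the p120 family, while alpha-catenin links the complex to actin. E-cadherin (Cdh1) is known from the epithelium of the lens, and N-cadherin (Cdh2) from both epithelium and fibers. Eph receptors are receptor tyrosine kinases that respond to ephrins, ligands anchored on the neighbouring cell, and EphA2 and ephrin-A5 are both known for their need in the regular packing or clarity of the lens. Mutations of EPHA2 and of JAM3 in people cause cataract.

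Values are scaled reads, that is, deposited read counts after division by a single factor per library, without adjustment for gene length. Where a pair of values is given for a group, replicate 1 stands before replicate 2. Reads counted in the genes with values came to 33920522 to 42767535 per library, without genes that are missing or reads not counted for a gene. Tdrd7 itself stood at 1080.1 ± 152 scaled reads in control and 131 ± 48.4 in null lenses (SD, n = 2), so the genotype labels and the targeted gene went together. Genes of lens fibers made up 282658 to 289969 scaled reads in control and 261510 to 294106 in null lenses over a list of 15 symbols, so the tissue had the markers of its label. Of 14 markers of retina and neurons 2 were listed, Prox1 and Elavl4, and 1 of them rose. Their sums, which rest on these 2 genes only, were 502 to 539 in control and 515 to 541 in null lenses. Of 10 markers of ciliary body and iris 6 were listed, 1 rose and 3 fell, with sums of 183 to 188 and 176 to 179. Among all tested genes 10.1% rose and 7.88% fell by the same test. None of 12 macrophage markers was listed. Of 12 endothelial markers 9 were listed, with a sum of 20.4 to 30.1 scaled reads in control and 24.2 to 30.8 in null lenses. Of 15 markers of cornea, conjunctiva and skin epithelium 3 were listed, with sums of 7.33 to 7.38 and 7.55 to 7.87.

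Most of the junction genes differed little between the genotypes. Of the 9 members 2 fell in null lenses, Epha2 and Arvcf, 0 rose, and 7 did not pass limma's test at an adjusted p under 0.05. Over all 10696 genes tested 7.88% were called lower, 10.1% higher and 18.0% in either direction. The median log2 fold change, Tdrd7 null over control, was -0.05 over the members and -0.01 over all tested genes. The median size of a change was 0.05 against 0.13, but all tested genes were not matched to the members for level or GC content. All 9 members passed the filter on low values. The groups did not overlap for 6 members, all lower in null lenses, where 31.3% of all genes were lower and 30.2% higher without overlap. For 3 of these 6 the gap was small against the control mean, at 0.633% for Ctnnb1, 0.122% for Cdh1 and 0.0161% for Ctnnd1. Since the libraries come from whole lenses, fewer cells of a type and less RNA per cell cannot be told apart. No source states that the pools were taken from separate litters, so p-values refer to these pools only. The spread used for each gene was drawn largely from genes of similar level (11.1 prior against 2 residual degrees of freedom).

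**Figure D1:**
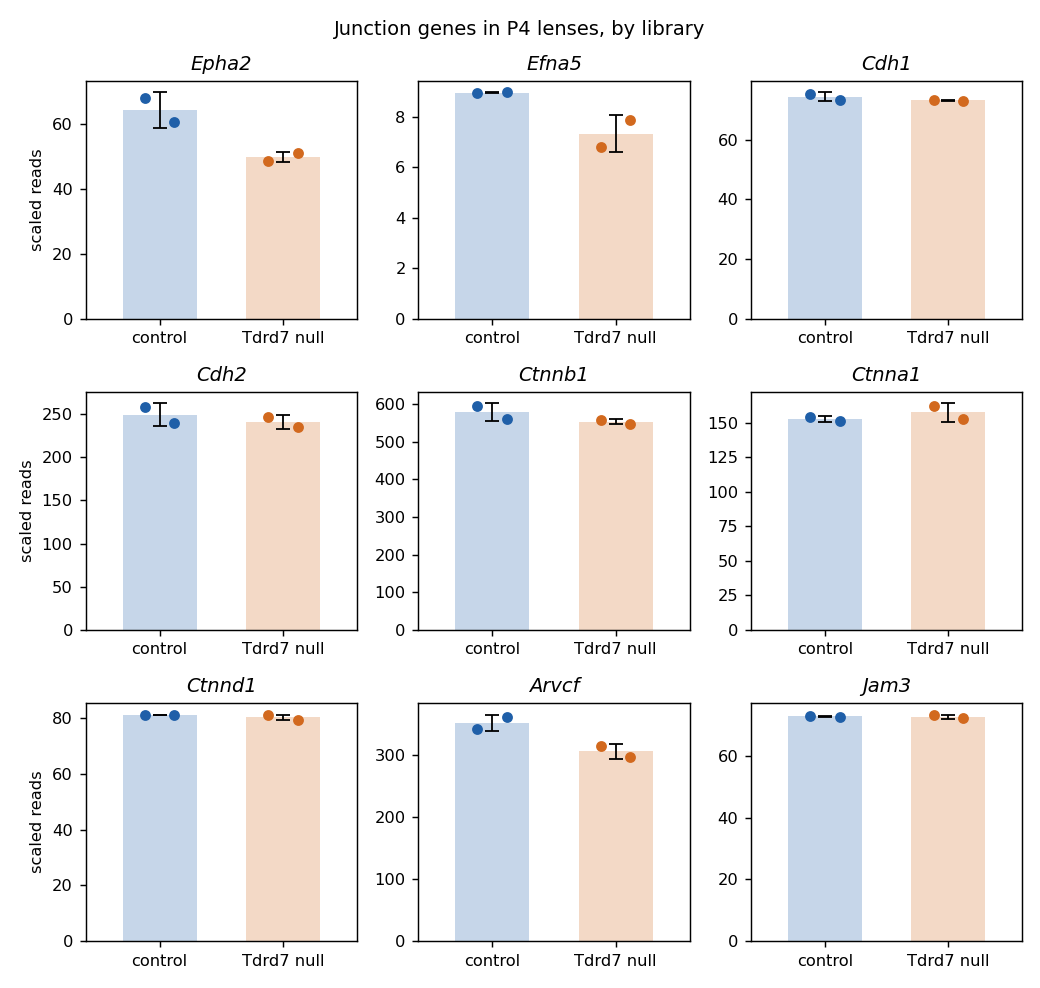
Scaled reads of the 9 junction genes on linear axes that start at 0, with 1 point per library, a bar at the mean of each genotype and an error bar of 1 SD (n = 2). The points of Epha2, Arvcf and Efna5 are lower in both Tdrd7 null libraries than in both control libraries by more than 5% of the control mean, while those of Jam3, Cdh1 and Ctnnd1 lie almost level.

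Epha2, which encodes the EphA2 receptor, had the largest change of the 9 genes. In scaled reads it stood at 68.2 and 60.5 in the control pools and 48.7 and 51.0 in the null pools. Both Tdrd7 null libraries lay below both control libraries, with a gap of 14.8% of the control mean. The mean fell by 22.5%, from 64.4 ± 5.44 to 49.9 ± 1.62 (SD, n = 2), and the log2 fold change was -0.36 with an SE of 0.0647 (limma adjusted p = 0.00407). The 95% interval of the fold ran from 0.707 to 0.859. The values rest on 1812 to 2828 reads per library. Without control replicate 1, the highest library, the log2 fold change of -0.27 was not called (limma adjusted p = 0.0596). The gene (ENSMUSG00000006445) lies on chromosome 4 from 141301240 to 141329384 on the forward strand in GRCm38, and it shares no exonic sequence with another annotated gene. Tdrd7 lies far from it on the same chromosome, from 45965334 to 46034761.

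The 250 bases before the RefSeq start sites of Epha2, of Arvcf and of Efna5 are printed here, since these are the members with the lowest fold changes. RefSeq promoters (GRCm38.p6) were given for 5 of the 9 members. These 3 short motifs were searched on both strands, and matches are in capitals: the GC box GGGCGG, the TATA box TATAAA and the half-site TGCTGA of the Maf factors, which drive crystallin genes in the lens. Of 32851 such windows 32.7%, 12.4% and 16.1% hold them.
Epha2, chr4:141300971-141301220, forward strand: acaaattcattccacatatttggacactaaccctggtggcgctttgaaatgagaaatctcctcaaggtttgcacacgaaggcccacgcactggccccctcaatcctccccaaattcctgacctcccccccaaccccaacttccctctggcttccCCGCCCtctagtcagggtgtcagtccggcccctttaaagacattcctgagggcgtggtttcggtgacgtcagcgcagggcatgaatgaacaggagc
Arvcf, chr16:18347932-18348181, forward strand, the most upstream of its 3 start sites: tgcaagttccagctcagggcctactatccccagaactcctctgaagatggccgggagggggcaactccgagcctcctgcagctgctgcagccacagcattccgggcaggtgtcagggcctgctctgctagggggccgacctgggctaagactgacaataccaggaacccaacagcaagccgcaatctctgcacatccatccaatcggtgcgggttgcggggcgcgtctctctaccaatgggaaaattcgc
Efna5, chr17:62881318-62881567, reverse strand: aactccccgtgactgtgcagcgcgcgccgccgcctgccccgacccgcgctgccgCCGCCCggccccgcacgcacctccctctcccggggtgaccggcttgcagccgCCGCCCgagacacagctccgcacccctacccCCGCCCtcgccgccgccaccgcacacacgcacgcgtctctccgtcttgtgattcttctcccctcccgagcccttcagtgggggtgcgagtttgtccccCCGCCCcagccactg
The Epha2 window holds 1 GC box, that of Efna5 holds 4 and this window of Arvcf holds 0, while those at its other start sites hold 0 and 3, and none of the 3 printed windows holds the TATA box or the Maf half-site. No match overlaps another. The GC content of these windows is 55.6% for Epha2, 60.8% for Arvcf and 74.8% for Efna5, against a median of 52.4% over all windows. A match is a description of the letters and not a site shown to be bound.

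The pattern of Epha2 over the 4 libraries was not particular to it. Among 5879 other genes with a mean of at least 10, nearest by Euclidean distance of centred log2 values were Haus7 (0.0442), Ankrd46 (0.057) and Fbxo10 (0.059), and 34 genes lay within 0.1. Haus7, which encodes a subunit of the augmin complex of the mitotic spindle, stood at a log2 fold change of -0.37. Ankrd46 stood at -0.35 and Fbxo10, an F-box protein, at -0.40. All 3 were called by limma (adjusted p = 0.00629, 0.00287 and 0.00668). Because they were picked for nearness to a called gene, these calls follow largely from the choice. Fbxo10 lies close to Tdrd7, on chromosome 4 from 45034247 to 45084604, and a part of this position in its fall was not tested. Without control replicate 1, Haus7 and Fbxo10 were not called (limma adjusted p = 0.084 and 0.0937).

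Efna5 encodes ephrin-A5, a ligand of EphA receptors held in the membrane by a lipid anchor. It had the lowest level of the members, at 8.95 and 8.96 scaled reads in the control pools and 6.81 and 7.86 in the null pools. The Tdrd7 null libraries were below both controls and were apart from each other by more than the controls were. The means were 8.96 ± 0.0108 and 7.33 ± 0.740 (SD, n = 2), with a log2 fold change of -0.26 (SE 0.0911, 95% interval -0.46 to -0.06). It did not pass limma's test (adjusted p = 0.0646), and 256 to 379 reads per library lay behind it. The gene (ENSMUSG00000048915) lies on chromosome 17 from 62604184 to 62881317 on the reverse strand.

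Efna5 was a minor ephrin of these lenses. Per kb of the longest transcript, it made up 8.46 ± 0.22% of the summed level of the 6 listed ephrins in control and 7.22 ± 0.557% in null lenses (SD, n = 2). Efnb2, which encodes the transmembrane ligand ephrin-B2, held 59.9 ± 0.918% and 61.5 ± 1.23%. Its level was 75.4 ± 3.02 scaled reads in control and 74.2 ± 3.25 in null lenses. Efnb1, another transmembrane ligand, was at 11.8 ± 1.27 and 10.9 ± 0.343. Of 8 ephrins 6 were listed, and 0 passed limma's test (1 at an unadjusted p under 0.05), where 18.0% of all tested genes passed. So few genes cannot show a difference from that share. Their median log2 fold change was -0.06.

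Some other Eph receptors fell with Epha2. Of 14 Eph receptors 7 were listed, 4 fell, Epha2 included, 0 rose and 3 did not pass limma. Over all tested genes 7.88% were called lower and 10.1% higher. The median log2 fold change of the 7, Epha2 included, was -0.34. Ephb3 went from 13.6 ± 0.662 to 10.2 ± 0.441 scaled reads (-0.38 in log2, SE 0.0791, limma adjusted p = 0.00708). Ephb4, a receptor of ephrin-B2 known from vessels, fell from 11.4 ± 0.416 to 8.85 ± 0.689 (-0.34, adjusted p = 0.0176), and Ephb6, whose kinase domain is inactive, from 3.62 ± 0.102 to 2.41 ± 0.309 (-0.44, adjusted p = 0.0218). These calls depended on single libraries. Ephb4 and Ephb6 were each called in 1 of 4 fits with a library left out, that without Tdrd7 null replicate 1, with limma adjusted p up to 0.133 and 0.141 in the others. Ephb3 was called in 3 and not without control replicate 1 (adjusted p = 0.0856). Of the summed level per kb of the listed receptors, Epha2 held 67.0 ± 1.80% in control and 66.1 ± 0.956% in null lenses, and the groups overlapped. Ephb3 followed with 11.7 ± 0.107% and 11.2 ± 0.682%. Of 23 listed partners in Eph signalling 2 rose and 1 fell, and 20 did not pass, where 10.1% of all tested genes were called higher and 7.88% lower. The Src family kinase Yes1 went from 12.8 ± 0.887 to 17.5 ± 0.682 (0.42, limma adjusted p = 0.00429), and the adaptor Sdcbp, or syntenin, from 23.7 ± 1.04 to 28.0 ± 1.603 (0.23, adjusted p = 0.035). The exchange factor Vav2 fell from 35.6 ± 0.891 to 30.7 ± 0.616 (-0.21, adjusted p = 0.0331). With the GC and length trend removed 0 of the partners passed, with Yes1 at 0.27 (limma adjusted p = 0.0596), Sdcbp at 0.05 (0.76) and Vav2 at -0.03 (0.805). Vav2 was called in 0 of 4 fits with a library left out (limma adjusted p = 0.0725 to 0.185), Sdcbp only in that without Tdrd7 null replicate 2, and Yes1 in all but that without control replicate 2 (0.0527). Yes1 shares 635 nt of exonic sequence with Gm10461 on the opposite strand and is uncertain, since the library kit does not mark strand. The GTPase Rac1 and the actin-binding protein Cttn, or cortactin, were the highest of these partners per kb and did not pass, at 0.09 and 0.10. Rac1 shares 2309 nt with Daglb on the opposite strand.

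Base composition moved with these changes. The 5 listed Eph receptors with a GC content above 55% in the longest transcript (55.3% to 59.4%) all had log2 fold changes below 0, from -0.44 to -0.27, and 4 of them were called. The 2 under 46%, Epha5 and Epha4, stood at 0.21 and 0.22 and were not called. Among all tested genes with 56% to 60% GC, which include Epha2 (56.9%) and Arvcf (58.8%), the median log2 fold change was -0.15 and 22.6% were called lower. In the class from 48% to 52%, which holds Cdh1, Cdh2, Ctnnb1 and Ctnna1, the median was -0.01 and 4.19% were called lower. In the class from 44% to 48% the median was 0.06, and Efna5 (44.8%) lay below it at -0.26 while Jam3 and Ctnnd1 lay near 0.

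**Figure D2:**
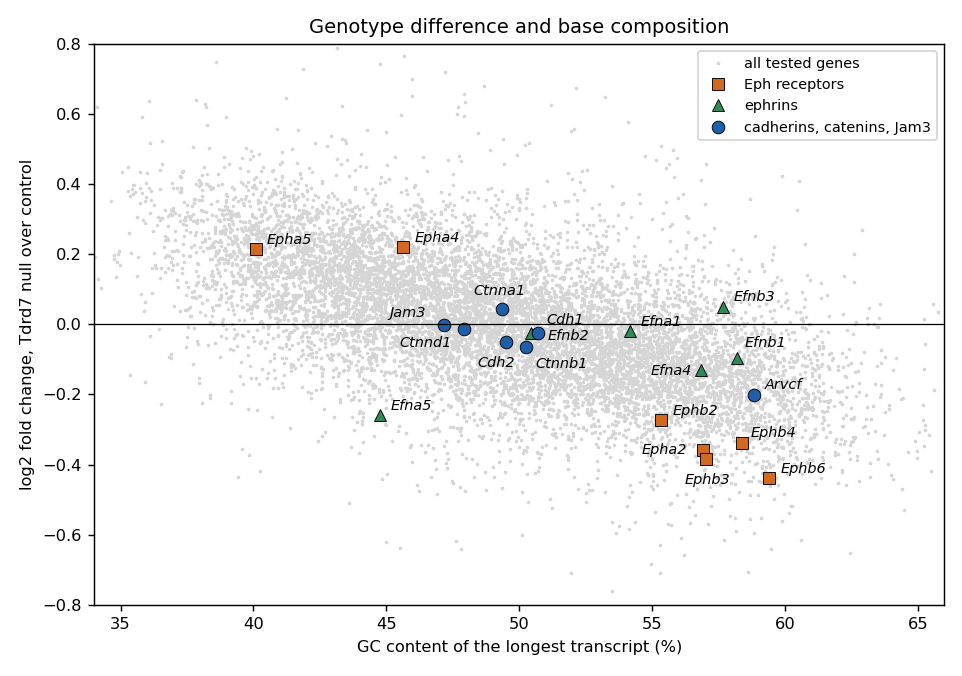
Log2 fold change, Tdrd7 null over control, against the GC content of the longest transcript in percent, for 10605 tested genes (grey; 51 more lie outside the axes), Eph receptors (squares), ephrins (triangles) and the cadherin, catenin and Jam3 members (circles). The 5 Eph receptors above 55% GC lie between -0.44 and -0.27, and Efna5, at 44.8% GC, lies at -0.26 below most genes of its composition.

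With the trend of each library on GC content and transcript length removed, 0 of the 9 members passed limma's test (2 at an unadjusted p under 0.05, against 3 before), where 3.17% of all genes were called, 1.27% lower and 1.91% higher. Epha2 then stood at -0.20 (SE 0.0623, limma adjusted p = 0.108, 95% interval -0.33 to -0.06). Arvcf went to 0.01 (SE 0.0487, adjusted p = 0.953, 95% interval -0.10 to 0.11). Efna5 went the other way, from -0.26 to -0.34 (SE 0.0877, adjusted p = 0.0561, unadjusted p = 0.00197), and was then the lowest of the members. None of the other Eph receptors passed either, with limma adjusted p from 0.108 to 0.799 over the 7. Of the genes nearest to Epha2 in pattern, Haus7 (-0.38) and Ankrd46 (-0.39) were still called (adjusted p = 0.0188 and 0.00258) and Fbxo10 (-0.25) was not (adjusted p = 0.111).

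**Figure D3:**
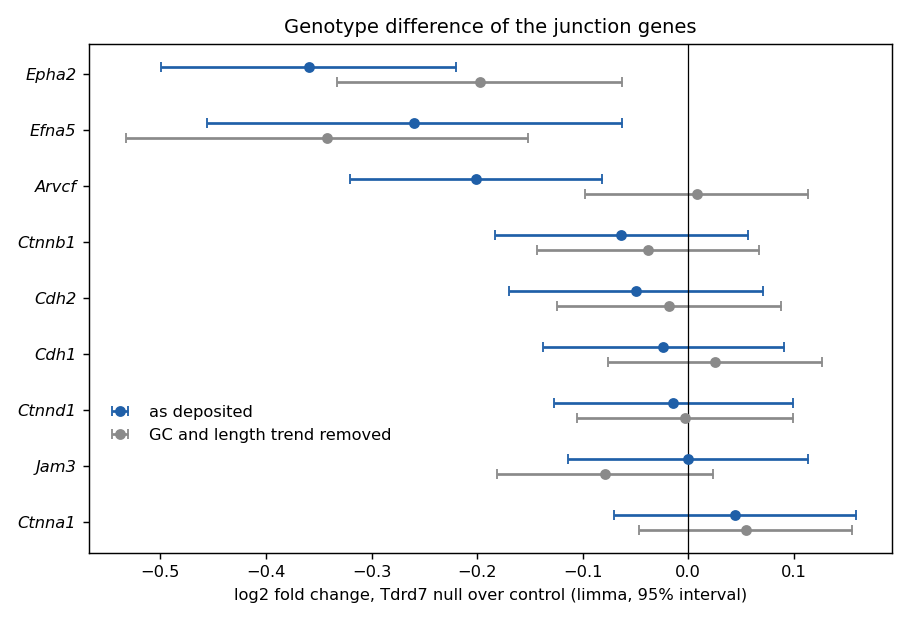
Log2 fold change of each member, Tdrd7 null over control, with its 95% interval from limma, as deposited (blue) and with the GC and length trend removed (grey). The intervals of Epha2 and Efna5 lie below 0 in both fits, although neither passed the adjusted threshold in the corrected fit, and that of Arvcf lies below 0 only as deposited.

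The cadherins did not pass limma's test. Cdh2, which encodes N-cadherin, was at 259 and 240 scaled reads in the control pools and 246 and 235 in the null pools, so the groups overlapped. Its log2 fold change of -0.05 had an SE of 0.0559 (limma adjusted p = 0.571), and the 95% interval of the fold ran from 0.889 to 1.05. Cdh1, which encodes E-cadherin, was at 75.5 and 73.5 in the control pools and 73.4 and 73.1 in the null pools. The groups were apart by 0.122% of the control mean, less than the spread of the controls. The log2 fold change of -0.02 had an SE of 0.053 (limma adjusted p = 0.792), with a 95% interval of the fold from 0.909 to 1.06. Cdh1 (ENSMUSG00000000303) lies on chromosome 8 from 106603351 to 106670246 on the forward strand, and Cdh2 (ENSMUSG00000024304) on chromosome 18.

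The balance of the cadherins within a library, which depends little on how libraries were scaled, was also even. Taken as log2(scaled reads + 1), Cdh1 minus Cdh2 was -1.76 and -1.69 in the control pools and -1.73 and -1.67 in the null pools. The groups overlapped, and the difference of 0.03 had an exact permutation p of 0.667 (two-sided), where 2 libraries against 2 can reach no less than 0.333. Per kb, Cdh2 held 68.8 ± 0.462% of the summed level of the 7 listed cadherins in control and 68.4 ± 0.697% in null lenses (SD, n = 2). Cdh1 held 22.5 ± 0.606% and 22.8 ± 0.444%. Cdh5, the cadherin of endothelium, held 0.751 ± 0.53% and 1.03 ± 0.384%. Of 18 cadherins 7 were listed and 0 passed limma, whether the p under 0.05 was adjusted or not. Among all tested genes 18.0% passed at the adjusted p.

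Beta-catenin (Ctnnb1), which binds the cadherin tail and also carries Wnt signals to the nucleus, was the highest member. It was at 595 and 562 scaled reads in the control pools and 558 and 549 in the null pools. The groups were apart by 0.633% of the control mean, and the log2 fold change of -0.06 (SE 0.0554) did not pass (limma adjusted p = 0.454). Its close relative Jup, or plakoglobin, made up 0.52 ± 0.0189% of the summed level of the pair per kb in control and 0.418 ± 0.014% in null lenses. Ctnnb1 (ENSMUSG00000006932) lies on chromosome 9 from 120929216 to 120960507 on the forward strand and shares 759 nt with Ulk4 on the opposite strand. Ulk4 itself was at 1.76 to 2.46 scaled reads.

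Ctnna1, which encodes alpha-E-catenin, was at 154 and 151 scaled reads in the control pools and 162 and 153 in the null pools, and the groups overlapped. It was the single member with a log2 fold change above 0, at 0.04 (SE 0.0531, limma adjusted p = 0.601). Ctnna2, the alpha-N-catenin best known from neurons, was also well expressed. The 2 genes shared the summed level per kb as 59.8 ± 0.866% for Ctnna1 and 40.2 ± 0.866% for Ctnna2 in control and as 58.3 ± 0.112% and 41.7 ± 0.112% in null lenses. Ctnna1 (ENSMUSG00000037815) lies on chromosome 18.

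Arvcf, a catenin of the p120 family that binds the cadherin tail next to the membrane and whose loss in mice leads to cataract, fell. In scaled reads it stood at 342 and 362 in the control pools and 315 and 297 in the null pools. Both Tdrd7 null libraries lay below both controls, with a gap of 7.81% of the control mean. The mean fell by 13.04%, from 352 ± 13.6 to 306 ± 12.4 (SD, n = 2), and the log2 fold change was -0.20 with an SE of 0.0554 (limma adjusted p = 0.0257). The call was lost without control replicate 1 (-0.24, limma adjusted p = 0.0769), without control replicate 2 (-0.16, 0.193) and without Tdrd7 null replicate 2 (-0.16, 0.129). Arvcf (ENSMUSG00000000325) lies on chromosome 16 from 18348182 to 18407076 on the forward strand. Reads from the opposite strand could not be told apart from its own.

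Arvcf was the leading p120 family gene of these lenses. It held 63.5 ± 1.21% of the summed level per kb of Arvcf, Ctnnd1, Ctnnd2 and Pkp4 in control and 61.1 ± 1.502% in null lenses. Ctnnd1, which encodes p120-catenin itself, held 10.8 ± 0.223% and 11.8 ± 0.0371%. It was at 81.1 and 81.0 scaled reads in the control pools and 81.0 and 79.5 in the null pools, with a log2 fold change of -0.01 (95% interval of the fold 0.916 to 1.07, limma adjusted p = 0.881). Ctnnd1 (ENSMUSG00000034101), on chromosome 2 from 84600071 to 84650765 on the reverse strand, shares 4482 nt of exonic sequence with Gm28635 on the same strand. Reads in shared sequence may not have been counted for it, so its level, its share and its rank are uncertain and may be too low.

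Among the other catenins and their armadillo relatives 1 rose and 2 fell of 12 listed, Arvcf included, and 9 did not pass. Beside this, 10.1% of all tested genes were called higher and 7.88% lower. Ctnnd2, or delta-catenin, went down from 72.3 ± 1.56 to 60.6 ± 2.51 scaled reads (-0.25 in log2, limma adjusted p = 0.0104), and stood at -0.09 with the GC and length trend removed (adjusted p = 0.357). Pkp2, which encodes the desmosomal protein plakophilin 2, rose from 38.9 ± 2.04 to 48.9 ± 1.09 (0.32, adjusted p = 0.00449) and was called at the same size with the GC and length trend removed (0.32, adjusted p = 0.0101). Pkp2 has a GC content of 49.6%. Without control replicate 1 neither was called (limma adjusted p = 0.092 for Ctnnd2 and 0.0614 for Pkp2), and without control replicate 2 Ctnnd2 was not (0.0533).

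Partners of the adherens junction changed in both directions. Of 29 listed partners 2 rose, 6 fell and 21 did not pass limma, with a median log2 fold change of -0.12. The shares over all tested genes were 10.1% higher and 7.88% lower. The receptor phosphatase Ptprf, also called LAR, fell from 329 ± 12.5 to 274 ± 4.56 scaled reads (-0.26, adjusted p = 0.00646), and the phosphatase Ptprj from 31.1 ± 0.534 to 24.9 ± 0.247 (-0.31, adjusted p = 0.00597). The small GTPase Rap1a rose by a log2 fold change of 0.31 (adjusted p = 0.00569). After removal of the GC and length trend 0 of them rose and 1 fell, which was Ptprj (-0.27, limma adjusted p = 0.0204), while Ptprf and Rap1a stood at -0.05 and 0.07. Ptprf and Ptprj were not called without control replicate 1 (limma adjusted p = 0.0821 and 0.0638), nor Rap1a without control replicate 2 (0.0532). The scaffold Tjp1, or ZO-1, the highest of these partners per kb, was at 333 ± 19.3 in control and 367 ± 13.1 in null lenses (0.14) and did not pass (limma adjusted p = 0.106).

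Jam3, which encodes junctional adhesion molecule C, was level in all 4 libraries. It was at 73.0 and 72.8 scaled reads in the control pools and 73.3 and 72.4 in the null pools, with overlapping groups and means of 72.9 ± 0.133 and 72.9 ± 0.632 (SD, n = 2). Its log2 fold change of -0.0006 had an SE of 0.0527 (limma adjusted p = 0.995), and the 95% interval of the fold ran from 0.924 to 1.08. With the GC and length trend removed it stood at -0.08 (adjusted p = 0.401). Jam3 held 97.5 ± 0.137% of the summed level per kb of the listed JAM genes in control and 97.0 ± 0.218% in null lenses, and Jam2 held the rest. The gene (ENSMUSG00000031990) lies on chromosome 9 from 27097385 to 27155421 on the reverse strand and shares 1159 nt with the antisense gene Gm48796, whose reads could not be told apart from its own. Of 19 listed genes of tight junctions and the JAM family 0 rose and 1 fell. Beside this, 10.1% of all tested genes were called higher and 7.88% lower. The polarity gene Crb2 was the one that fell, from 32.3 ± 1.80 to 26.1 ± 1.16 (-0.29, limma adjusted p = 0.0109). It stood at -0.06 with the GC and length trend removed. Crb2 was not called without control replicate 2 (limma adjusted p = 0.114) or Tdrd7 null replicate 2 (0.0585). Crb2 shares 113 nt with Dennd1a on the opposite strand.

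Per kb of the longest transcript the members spanned a wide range. Means over the 4 libraries were 156 scaled reads per kb for Ctnnb1, 70.1 for Arvcf, 50.6 for Cdh2, 41.6 for Ctnna1, 37.5 for Jam3, 16.7 for Cdh1, 14.6 for Epha2, 12.7 for Ctnnd1 and 2.02 for Efna5. Among the 10750 genes with a transcript model these were ranks 136, 295, 437, 553, 609, 1387, 1572, 1805 and 6897. Neighbours in this order were in the same order in all 4 libraries, except around Epha2. Epha2, at 12.5 to 17.4 per kb, overlapped Cdh1, at 16.5 to 17.0, and Ctnnd1, at 12.5 to 12.7, so over the 4 libraries Epha2 does not differ from either beyond its spread, which includes the difference between the genotypes. Cdh1 and Ctnnd1 did not overlap each other. In control Epha2 (16.5 ± 1.39) lay near Cdh1 (16.8 ± 0.317), and in null lenses (12.7 ± 0.413) near Ctnnd1 (12.6 ± 0.162). The step from Cdh2 to Ctnna1 was 1.22-fold and that from Ctnna1 to Jam3 was 1.11-fold, with a range over libraries of 1.17 to 1.29 and 1.08 to 1.15. Levels per kb depend on the transcript chosen for the length.

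**Figure D4:**
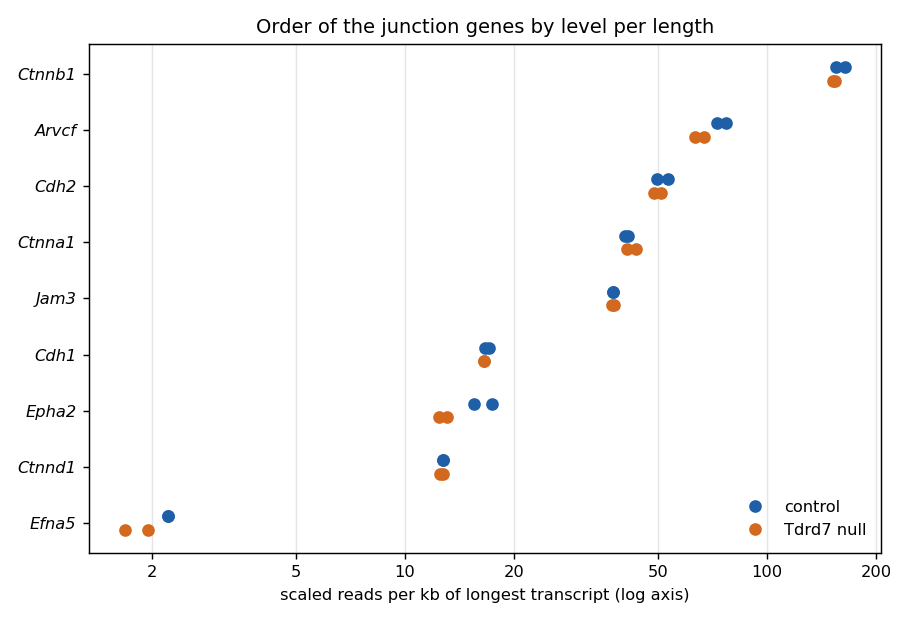
Scaled reads per kb of the longest transcript (log axis) for the 9 members in order of their mean, with 1 point per library, control in blue and Tdrd7 null in orange. Ctnnb1 is highest at 151 to 164 and Efna5 lowest at 1.69 to 2.22, and the control and Tdrd7 null points are apart for Epha2, Arvcf and Efna5.

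Genes of the lens epithelium, the cells known for E-cadherin, moved in both directions. Of 9 listed markers 3 rose and 2 fell, and their sum was 1433 to 1510.1 scaled reads in control and 1614 to 1623 in null lenses. For comparison with this and the next lists, 10.1% of all tested genes were called higher and 7.88% lower. Of 16 rows of fiber markers 0 rose and 2 fell. Of 5 listed pericyte markers 2 fell, with a sum of 38.8 to 48.8 in control and 33.7 to 36.8 in null lenses. With the GC and length trend removed 0 genes of the epithelium, fiber, pericyte, and ciliary body and iris lists were called. The part of the makeup of cells in the falls of Epha2 and Arvcf was not tested.

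Across settings Epha2 kept its direction in all 18 alternatives and was called in 14, with log2 fold changes from -0.44 to -0.20. Settings of the filter, prior, block or threshold cannot move a fold change, so the direction there was fixed in advance. The threshold of 0.1 also keeps every call. Arvcf was called in 12, and Efna5 in 5. The other 6 members were called in 0 of 18. Efna5 passed when libraries were scaled to the total without crystallins (-0.30, limma adjusted p = 0.0387), with a replicate block and the GC and length trend removed (-0.34, adjusted p = 0.0473), with a crossed pairing of replicates chosen after seeing the data (-0.26, adjusted p = 0.0212), without Tdrd7 null replicate 2 (-0.35, adjusted p = 0.0417) and at an adjusted p under 0.1.

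**Figure D5:**
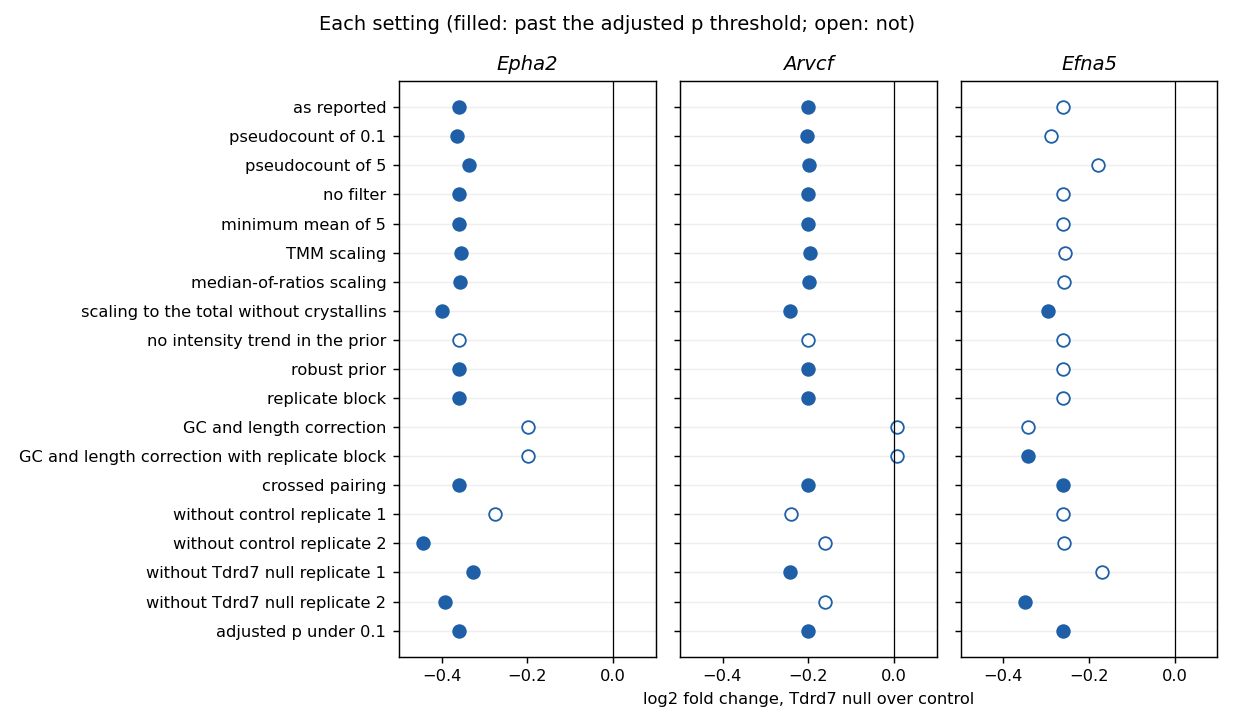
Log2 fold change, Tdrd7 null over control, of Epha2, Arvcf and Efna5 as reported and under each of 18 alternatives, with filled circles for values past the adjusted p threshold. Epha2 lies between -0.44 and -0.20 throughout, Arvcf reaches 0.01 with the GC and length correction, and Efna5 is filled in 5 alternatives.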

How the data were processed

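The 4 libraries were grouped by the genotype in their labels. Per the labels' design text, RNA was depleted of small species, poly(A) selection followed, and libraries were read from both ends for 75 nt with a kit that does not mark strand. Per the submitters' processing notes, Trimmomatic, TopHat2 2.0.9, Cufflinks and Cuffnorm were used, with the mm10 (GRCm38) build. No name of a counting tool is given in the sources used here. In the deposited table each gene has a signal value per library. All values lay within 0.1 reads of whole multiples of a step of 0.0237 to 0.0282 per library, so they are scaled read counts. The lowest value of a library came to 5 to 21 reads, so low genes are missing.

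Genes with a mean of at least 1 were tested as log2(scaled reads + 1) in limma 3.58.1 (R 4.3.3) under a prior that follows intensity (11.1 degrees of freedom beside 2 residual), two-sided, with Benjamini-Hochberg adjustment over all genes. Fold changes are on that scale, where changes of low genes come out too small. Exact permutation tests used SciPy 1.17.1. GC content, length and shared exons came from GENCODE M21. The GC and length correction removed natural splines of 5 degrees of freedom each per library. Splines, a replicate block, leaving out each library, and other pseudocounts, filters, scalings and priors were the alternatives. The fit was tested on simulated data.

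The members and lists were chosen with earlier results of these data known. The families whose shares are given and the GC classes were chosen after values were seen. Named beside the members were called genes of each list, up to 4 by smallest p, the 2 highest per kb, and the 3 genes nearest to the member of smallest p. A gene that this rule names, and some shared exons, are not reported here. Counts are therefore described without a test of the list. Intervals cover the spread between pools as limma estimates it. Symbols such as Pvrl3 and Mllt4 are older names kept by the table.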

Additional observations from a re-analysis of the deposited data

How the results depend on the processing

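The count of 1920 genes called was within 1.5 times of that under the other pseudocounts, filters, scalings, the robust prior and a threshold of 0.1. It was 16 without the intensity trend in the prior, 338 with the GC and length correction, 423 with that correction and the replicate number as a block, and 404 to 2136 with 1 library left out. Scaling to the total without crystallins turned the split from 1077 higher and 843 lower to 766 and 1262. The junction genes called were 0 without the intensity trend, 0 with the GC and length correction, 1 (Efna5) with the correction and the block, and 0 to 2 with 1 library left out. With the replicate block alone 2117 genes and 2 members were called. Deviations of libraries with the same number were correlated at -0.151 over genes, and the numbers are not said to pair litters. With the crossed pairing, added after seeing the data, 3036 genes and 3 members were called. In the fit with the replicate block alone the prior left a gene's own spread without weight. The weight in the other fits with a block is not given here. The genotype difference of the Cdh1 to Cdh2 balance, 0.026 with all libraries, went from -0.0084 to 0.0604 with 1 library left out, so its sign was not stable.

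Among the called genes named in the text, Arvcf was the one whose sign turned, and the other turns were of uncalled values near 0. With the GC and length correction, with or without the block, Cdh1 was 0.0254, Arvcf 0.0078, Efnb2 0.0246 and Efnb1 0.0748. Jam3 was 0.0036 with TMM scaling and 0.0017 with median-of-ratios scaling. With 1 library left out, Jam3 ranged from -0.0093 to 0.0081 (above 0 without control replicate 1, at 0.0012, or Tdrd7 null replicate 2), Cdh2 from -0.103 to 0.0037 (without control replicate 1), Efnb2 from -0.0683 to 0.01996 (above 0 without control replicate 1, at 0.0162, or Tdrd7 null replicate 1) and Efnb1 from -0.197 to 0.0067 (without control replicate 2). Epha2 and Arvcf lost their calls without the intensity trend (limma adjusted p = 0.0631 and 0.128). The cause of these changes was not tested. A fit with 1 library in a group assumes that it varies like the others. The planned edgeR test was not run, because the deposited values are scaled. With 2 pools per genotype and few reads for Efna5, smaller differences were not detectable.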
